A study of Mus musculus with 5 samples.

Results

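Expression was described for 10 genes of the insulin-like growth factor (IGF) system in the lungs of Zswim8 mutant mouse embryos: the ligand gene Igf1, the receptor gene Igf1r, the substrate genes Irs1 and Irs2, and the binding protein genes Igfbp2, Igfbp3, Igfbp4, Igfbp5, Igfbp6 and Igfbp7. They were taken by symbol from the 32285 genes of the count matrices. The list was drawn up with the higher Igf1 level in immune cells of the null lungs already known, so Igf1 in immune cells and its difference between lineages are described here without a test and enter no count of calls. Whole lungs were dissociated with collagenase and DNase, treated with red blood cell lysis buffer and profiled with 10x Chromium 3′ single-cell RNA sequencing. All embryos were collected at E18.5: 2 were Zswim8+/- (libraries Het1 and Het2, the controls, which carry 1 mutant allele) and 3 were Zswim8-/- (KO1, KO2 and KO3). Each library is 1 embryo, and the embryo was the replicate in every comparison. No wild-type lungs were among the samples used, and the strain is not given in the sources used here. Zswim8 encodes the substrate receptor of a ubiquitin ligase that directs the decay of microRNAs together with the Argonaute protein that holds them.

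IGF1 is a secreted growth factor that binds the IGF1 receptor, a tyrosine kinase. The active receptor phosphorylates the docking proteins IRS1 and IRS2, which recruit PI3-kinase and start signalling through AKT and mTOR. Most IGF in tissue fluid is held by secreted binding proteins, which can keep the ligand from the receptor or carry it to cells. In the developing lung IGF1 is made largely by mesenchymal cells and macrophages, and mice without Igf1 or Igf1r have underdeveloped lungs.

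Unique molecular identifiers (UMIs, 1 for each captured transcript) were summed over the cells of a library and are given as CPM, a gene's UMIs per 1000000 UMIs of those cells. The libraries held 56608582 to 93708304 UMIs, and 3051 to 4634 cells per library passed the filters, with median depths of 9703 to 12678 UMIs per cell. Any pair of libraries shared 0 to 7 cell barcodes. Cells were clustered without the 10 genes and 47 further IGF pathway genes among the variable genes, and a cluster was called "X-like" where it carried the marker genes of cell type X. Zswim8 itself read 36.9 and 38.8 CPM in the Het libraries and 38.5, 38.7 and 40.1 CPM in the KO libraries, and 3′ counts of a transcript that still reaches its 3′ end do not check the allele. KO1 and KO2 carried Xist and no more than trace Y-linked transcripts, whereas Het1, Het2 and KO3 were male, so sex moves in part with genotype. KO1 was also the shallowest library. Red cell barcodes, which show the free RNA that any droplet can pick up, held the 10 genes at 0.361 CPM (Igfbp3) to 15.9 CPM (Igfbp4). Their median depths were only 2328 to 2622 UMIs, so equal CPM stand for fewer UMIs per droplet in them than in cells.

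Short sequences of the system are given first, because the enzyme lost in these lungs acts on microRNAs. The series did not measure microRNAs in these libraries. The mature microRNAs below are from RefSeq (GRCm38.p6), with the seed (bases 2 to 8) in capitals. miR-322 and miR-503 come from 1 cluster on the X chromosome and have seeds that differ at the last base. miR-7a, miR-29b and miR-30c have other seeds and are shown beside them.
mmu-miR-322-5p: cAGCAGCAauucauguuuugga
mmu-miR-503-5p: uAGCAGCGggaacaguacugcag
mmu-miR-7a-5p: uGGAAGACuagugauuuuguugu
mmu-miR-29b-3p: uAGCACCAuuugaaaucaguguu
mmu-miR-30c-5p: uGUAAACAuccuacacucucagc

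The longest annotated 3′ untranslated region of each gene (GENCODE M21, GRCm38) was searched on the transcript strand for the letters complementary to each seed. The motif for miR-322, TGCTGCT, stands in 20.3% of all 20997 such regions and the motif for miR-503, CGCTGCT, in 3.94%. Of the 10 genes, Igf1, Igf1r, Irs2, Igfbp3 and Igfbp4 hold the miR-322 motif once each, and Irs2 (2 matches) and Igfbp5 (1 match) hold the miR-503 motif. The matches are printed 5′ to 3′ on the transcript strand with the motif in capitals. The miR-322 match and the first miR-503 match of Irs2 overlap.
Igf1, miR-322 motif, chr10:87930772-87930800 (+): gcaggatccttTGCTGCTtgagcaacctg
Igf1r, miR-322 motif, chr7:68229940-68229968 (+): acccatccgtcTGCTGCTcacaggtggac
Irs2, miR-322 motif, chr8:10986877-10986905 (-): ccgaccaacgcTGCTGCTcactttcctat
Igfbp3, miR-322 motif, chr11:7207144-7207172 (-): acgggcttcaaTGCTGCTggccctctgcc
Igfbp4, miR-322 motif, chr11:99052145-99052173 (+): cctctgctctgTGCTGCTgcgtagagctc
Irs2, miR-503 motif, chr8:10986880-10986908 (-): tttccgaccaaCGCTGCTgctcactttcc
Irs2, second miR-503 motif, chr8:10985793-10985821 (-): cgccgtcacctCGCTGCTccgtcacaggg
Igfbp5, miR-503 motif, chr1:72859641-72859669 (-): gtgagtctcccCGCTGCTcatatggagag

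The motif of miR-7a (GTCTTCC, in 11.9% of the regions) stood once in Irs1 and in 2 places in Irs2. That of miR-29b (TGGTGCT, 13.1%) stood in 2 places in Igf1, 1 in Irs1 and 2 in Igfbp4. That of miR-30c (TGTTTAC, 13.8%) stood once each in Igf1r and Irs1. Igfbp2, Igfbp6 and Igfbp7 held none of the 5 motifs, and their searched regions were short, at 312, 209 and 240 bases. The other members' regions ran from 1435 bases (Igfbp3) to 7267 bases (Igf1r). A match is a description of the sequence and does not show binding, and no match says only that these letters are not in the window.

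The genes lie on 7 chromosomes of GRCm38. Igfbp2 (ENSMUSG00000039323, chr1:72824503-72852474, + strand) and Igfbp5 (ENSMUSG00000026185, chr1:72857932-72874884, - strand) are neighbours that end facing each other. Irs1 (ENSMUSG00000055980, chr1:82233101-82291416, -) is on the same chromosome. Igfbp3 (ENSMUSG00000020427, chr11:7206086-7213923, -) and Igfbp4 (ENSMUSG00000017493, chr11:99041244-99054392, +) share chromosome 11. Igf1 is ENSMUSG00000020053 (chr10:87858265-87937042, +), and Igf1r is ENSMUSG00000005533 (chr7:67952827-68233668, +). Irs2 is ENSMUSG00000038894 (chr8:10984681-11008458, -), Igfbp6 is ENSMUSG00000023046 (chr15:102144362-102149511, +), and Igfbp7 is ENSMUSG00000036256 (chr5:77349240-77408041, -). Genes on the opposite strand overlap Igf1 (Igf1os), Irs1 (Gm9747), Irs2 (9530052E02Rik) and Igfbp7 (Gm34648 and Polr2b). Whether the counting used the strand is not given in the sources used here, so reads of these pairs may not be told apart.

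Which cells of the lung held the transcripts was read from 20 classes that had 20 or more cells in each of the libraries. These levels are a description, since the classes were named from the same cells. Each level is the mean ± SD in CPM over the 5 libraries of both genotypes, and levels of different genes are not compared because 3′ counts are not scaled for capture of each gene. Igf1, the ligand, was highest in alveolar myofibroblast-like cells at 898 ± 208, above every other class in all 5 libraries. Interstitial macrophage-like cells followed at 437 ± 93.3, also above the next class in all 5. Adventitial fibroblast-like cells (294 ± 96.8) and alveolar fibroblast-like cells (200.5 ± 54.7) came next, in that order in 4 of 5 libraries. Secretory airway (club)-like cells were lowest for Igf1 at 1.46 CPM, under the 2.91 to 6.53 CPM of red cell barcodes.

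For Igf1r, the receptor, the 4 highest classes were club-like cells (198 ± 57.3 CPM), smooth muscle-like cells (193 ± 24.7), adventitial fibroblast-like cells (192 ± 13.9) and alveolar fibroblast-like cells (191 ± 18.2). These 4 did not differ beyond their spread, since each exceeded the next in only 2 or 3 of 5 libraries. The lowest class of Igf1r, at 10.2 CPM, was an unnamed immune cluster led by Ear2, Plet1 and Lpl, against 4.13 to 7.76 CPM in red cell barcodes.

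The 2 substrates were placed differently. Irs1 was highest in mesothelial-like cells at 37.8 ± 7.13 CPM, above the next class in 5 of 5 libraries. Adventitial fibroblast-like (29.4 ± 5.81), AT2-like (29.0 ± 5.88), alveolar fibroblast-like (28.3 ± 5.20) and alveolar myofibroblast-like cells (28.1 ± 2.99) followed for Irs1 with no order beyond their spread. AT2 and AT1 cells are the surfactant-making and the flat gas-exchange cells of the alveolar epithelium. Irs2 was highest in alveolar myofibroblast-like cells (179 ± 24.4 CPM) and then in alveolar fibroblast-like cells (145 ± 20.03), in that order in all 5 libraries. Unlike Irs1, Irs2 reached 115 ± 23.6 CPM in the immune cluster led by Ear2, and its lowest class was cycling general capillary-like cells at 2.76 CPM.

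Among the binding proteins, Igfbp5 and Igfbp6 were highest in mesothelial-like cells, the covering layer of the lung. Igfbp5 read 3804 ± 972 CPM there against 869 ± 85.3 in adventitial fibroblast-like cells, and Igfbp6 read 1319 ± 220 CPM there against 651 ± 188 in AT1-like cells. Both steps were seen in all 5 libraries. Igfbp4, which binds IGF and is cut by the protease PAPP-A, had its highest mean in adventitial fibroblast-like cells (802 ± 102 CPM). Alveolar fibroblast-like cells came second (612 ± 305), with the genotypes far apart. Adventitial fibroblast-like cells lay above them in 3 of 5 libraries, the KO libraries, and below them in both Het libraries. Interstitial macrophage-like cells (463 ± 55.6) and general capillary-like cells (454 ± 77.5) were near each other further down. Igfbp7, a related protein with low affinity for IGF, read 637 ± 86.5 CPM in adventitial fibroblast-like cells and 572 ± 104 in smooth muscle-like cells. Alveolar fibroblast-like cells came next at 543 ± 324 CPM, with the Het libraries far above the KO libraries. Their highest library read 905 CPM, against 771 for the highest in adventitial fibroblast-like cells. Igfbp7 was also high in AT1-like cells at 525 ± 148 CPM.

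Igfbp2 and Igfbp3 had means that the library spread nearly matched. Igfbp2, a binding protein of fetal tissue, averaged 352 ± 325 CPM in alveolar fibroblast-like cells, where the genotypes stood far apart, and 251 ± 58.4 in mesothelial-like cells. The next class for Igfbp2 was club-like at 49.8 ± 33.7 CPM, below mesothelial-like cells in all 5 libraries. Igfbp3, the main IGF carrier of plasma, averaged 169 ± 241 CPM in mesothelial-like cells because Het2 alone read 600 there. The other 4 libraries had Igfbp3 at 43.9 to 70.7 CPM in those cells. The Het2 mesothelial-like cells stood apart for Igfbp4 as well, at 763 CPM against 36.1 in Het1 and 62.7 to 203 in the KO libraries. In immune classes Igfbp5, Igfbp6 and Igfbp7 mostly read no higher in CPM than in red cell barcodes, which are shallower.

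**Figure D1:**
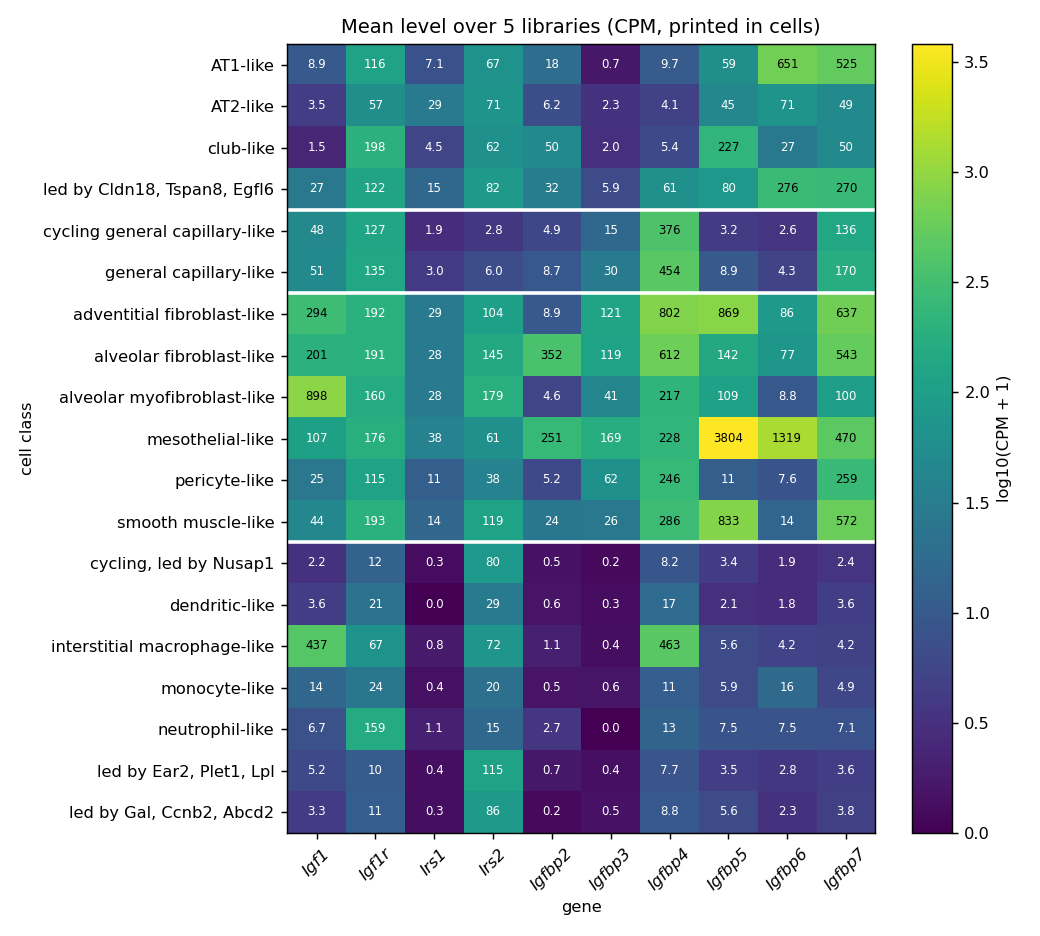
Mean level (CPM over 5 libraries, printed in each cell, colour on a log10 scale) of the 10 genes (columns) in 19 of the cell classes (rows, grouped by lineage with white lines). Igf1 peaks in alveolar myofibroblast-like cells at 898 CPM and interstitial macrophage-like cells at 437 CPM, and Igfbp5 and Igfbp6 peak in mesothelial-like cells.

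By lineage, mesenchymal cells supplied 61.0% of all Igf1 UMIs in Het1 (exact 95% interval 59.3 to 62.8), 65.4% in Het2 (64.0 to 66.9), 59.8% in KO1 (58.3 to 61.2), 47.3% in KO2 (45.8 to 48.8) and 54.0% in KO3 (52.8 to 55.2). Immune cells supplied 19.1% in Het1 and 17.2% in Het2 against 27.6%, 38.5% and 29.97% in the KO libraries. For Irs2 the immune share was 53.9% (52.5 to 55.4) in Het1 and 57.8% (56.4 to 59.1) in Het2, and lower in KO1 at 27.2% (25.7 to 28.7), KO2 at 37.4% (35.8 to 39.1) and KO3 at 40.3% (38.8 to 41.7). These shares move with how many cells of each lineage a library holds, and the intervals cover counting error only. Immune cells numbered 2041 and 1971 in the Het libraries and 945, 1551 and 1776 in the KO libraries. Mesenchymal cells numbered 596 and 609 in the Het libraries and 899, 622 and 879 in the KO libraries.

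For each of the 10 genes, the genes with the most similar pattern over 15 classes were ranked by Pearson's r of log2(CPM + 1), averaged over the 5 libraries, among 6359 or 6360 genes. These r values are descriptions over 15 points that share libraries. Nearest to Igf1 were Ulk2 (0.917), Colec12 (0.910) and Tgfbr2 (0.879), nearest to Igf1r was Srpk2 (0.873), and nearest to Irs2 was Ssbp2 (0.878). Irs1 was nearest to Meg3 (0.963). Igfbp7 was nearest to Sparc (0.980), Igfbp3 to Plscr4 (0.971), Igfbp5 to Efna5 (0.970), Igfbp6 to Pdpn (0.941) and Igfbp4 to Cnrip1 (0.938). Igfbp2 had the weakest best match, Efemp1 (0.829).

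Over all kept cells of a library, none of the 10 genes differed between KO and Het at an edgeR adjusted p under 0.05, where 3.82% of 17683 genes tested did (1.06% higher and 2.77% lower in KO). At an unadjusted p under 0.05, 2 of the 10 passed (Igf1 and Igfbp3), against 25.6% of all genes. DESeq2 called 1, Igf1, against 11.9% of all genes. The whole-library value of Igf1 holds the immune cells whose level chose the list. In these sums fewer cells of a type and less RNA per cell cannot be told apart. Igf1 read 51.3 and 71.1 CPM in Het against 116, 79.8 and 99.6 in KO, with every KO library above both Het libraries (log2 change 0.68 ± 0.20 SE, edgeR adjusted p 0.107). CPM in genotype comparisons are scaled by edgeR's trimmed mean of M values (TMM) unless called plain. Igf1r read 84.3 and 83.7 in Het against 122, 90.7 and 87.0 CPM in KO and did not overlap either, though KO3 lay close to Het1 (log2 change 0.25 ± 0.15 SE, edgeR adjusted p 0.344). Groups that did not overlap were common, with 47.0% of all genes so. Igfbp3 was 16.8 and 50.8 CPM in Het and 18.7, 10.1 and 14.7 in KO, and the groups overlapped because Het1 lay below KO1. The other 7 genes also overlapped.

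For 9 of the 10 genes the class with the highest mean was mesenchymal, and the differences there sat in particular classes. Over the summed mesenchymal lineage none of the 10 genes was called at an edgeR adjusted p under 0.05, where 0.186% of 13994 genes were. At an unadjusted p under 0.05, 5 of the 10 passed (Igfbp2, Igfbp3, Igfbp5, Igfbp6 and Igfbp7), all lower in KO, against 13.7% of all genes. DESeq2 called 3, against 1.35% of all genes. Igfbp2 read 123 and 199 CPM in Het against 60.7, 73.0 and 74.6 in KO (log2 change -1.22 ± 0.19 SE, edgeR adjusted p 0.0695). Igfbp3 read 103 and 281 against 43.1, 39.9 and 51.4 CPM (log2 change -2.10 ± 0.35 SE, edgeR adjusted p 0.0762), with Het2 far above Het1. Neither overlapped, as was true of 32.5% of all genes. Without Het1 (log2 change -1.52, edgeR adjusted p 0.0028 for Igfbp2; -2.64, 0.00024 for Igfbp3) and without Het2 (-0.82, 0.0475; -1.20, 0.0166) both passed. With the mesothelial-like cells left out, which was chosen after seeing the data, Igfbp2 (-2.22, 0.0174), Igfbp3 (-1.64, 0.0036) and Igfbp7 (-0.59, 0.0211) passed. With the alveolar fibroblast-like cells left out, Igfbp2 had a log2 change of -0.37 (edgeR adjusted p 0.761).

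Among the mesenchymal classes, most calls sat in the alveolar fibroblast-like class. This class was a mixture, which divided under a stricter cell filter as described below. In these cells 7 of the 10 genes were lower in KO at an edgeR adjusted p under 0.05 and none was higher, where 6.39% of 9282 genes were called and 4.65% were called lower. The class held 104 and 103 cells in the Het libraries and 153, 123 and 161 in the KO libraries. Alveolar fibroblasts, also called lipofibroblasts, are interstitial cells that lie beside AT2 cells.

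Igfbp2 was 665 and 747 CPM in Het and 62.3, 156 and 133 in KO (log2 change -2.58 ± 0.23 SE, edgeR adjusted p 9.2e-06), so the lowest Het library stood above the highest KO library by several times. Igfbp3 was 252 and 203 CPM in Het and 14.6, 72.7 and 52.1 in KO (-2.26 ± 0.30, edgeR adjusted p 0.00025). Igfbp5 was 231 and 288 CPM in Het and 15.4, 93.6 and 81.0 in KO (-2.001 ± 0.34, edgeR adjusted p 0.0017). KO1 was the lowest library for each of these 3 genes. Igfbp7 was 867 and 912 CPM in Het against 217, 401 and 331 in KO (-1.49 ± 0.19, edgeR adjusted p 0.00013). Igfbp4 was 877 and 1005 CPM against 357, 456 and 388 (-1.23 ± 0.14, edgeR adjusted p 6.3e-05). Igfbp6 was 116 in both Het libraries against 28.5, 69.3 and 56.4 CPM (-1.15 ± 0.23, edgeR adjusted p 0.0059). All 6 binding proteins were thus lower in each KO library than in either Het library, where groups did not overlap for 37.8% of all genes in the class.

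The ligand gene was lower by less: Igf1 was 268 and 243 CPM in Het and 143, 184 and 172 in KO (log2 change -0.61 ± 0.14 SE, edgeR adjusted p 0.0113). Igf1r (205 and 215 against 207, 174 and 170 CPM), Irs1 (23.9 and 35.9 against 24.6, 28.3 and 30.1 CPM) and Irs2 (124 and 155 against 188, 127 and 145 CPM) overlapped between the groups. The calls of Igf1, Igfbp5 and Igfbp6 were lost with sex as a covariate. Without Het1, Igf1 (edgeR adjusted p 0.155) and Igfbp6 (0.0688) were lost. Without Het2, Igf1 (0.119), Igfbp5 (0.103) and Igfbp6 (0.136) were lost. DESeq2 did not call Igf1, Igfbp3 or Igfbp5.

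The class was not uniform. Igfbp2 UMIs were seen in 32.7% and 38.8% of its Het cells and in 5.23%, 13.01% and 14.9% of its KO cells. With each cell thinned to 3000 UMIs, leaving out 1 to 9 shallower cells per library, the shares were 29.4% and 32.4% against 4.86%, 8.26% and 12.0%. In red cell barcodes, with a median of 2328 to 2622 UMIs, Igfbp2 was seen in 0.349% to 0.696%. When cells were filtered more strictly (1000 genes or more, mitochondrial UMIs no higher than 10%) and clustered again, the class divided in 3. Of its 88, 96, 141, 107 and 142 cells that passed in Het1, Het2, KO1, KO2 and KO3, 25, 16, 109, 66 and 83 stayed alveolar fibroblast-like. Adventitial fibroblast-like clusters took 31, 37, 20, 26 and 36. An unnamed cluster led by Igfbp2, Wif1 and Lgr5 took 31, 41, 11, 15 and 22. Wif1 and Lgr5 encode a secreted Wnt inhibitor and a Wnt pathway receptor. They are named because they lead the cluster and were chosen after their values were seen.

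The Wif1 and Lgr5 cells made up 35.2% of the passing cells of the class in Het1 (exact 95% interval 25.3 to 46.1) and 42.7% in Het2 (32.7 to 53.2). They made up 7.80% in KO1 (3.96 to 13.5), 14.02% in KO2 (8.06 to 22.1) and 15.5% in KO3 (9.97 to 22.5). They held 96.6% to 100% of the Igfbp2 UMIs of those passing cells in every library and 71.6% to 97.2% of the Igfbp3 UMIs. They also held all Wif1 UMIs of the 3 groups.

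Within the Wif1 and Lgr5 cells Igfbp2 read 1821 and 1657 plain CPM in Het and 853, 793 and 1054 in KO. Igfbp3 read 576 and 421 in Het and 189, 365 and 299 in KO, and Igfbp7 read 1333 and 1280 against 968, 1026 and 1071. The groups of none of these 3 genes overlapped. How many of all genes did the same in these cells was not counted, and in the whole class it was 37.8%. Igfbp4 also stayed apart, at 1524 and 1626 against 1305, 987 and 1115 plain CPM. Igfbp5 overlapped, at 455 and 563 in Het and 31.6, 410 and 492 in KO, the lowest value resting on 3 UMIs. Igf1 lay the other way, at 427 and 327 in Het and 600, 473 and 435 in KO, as did Igfbp6, at 247 and 203 against 295, 299 and 351. Neither of them overlapped. With 11 to 41 cells per library, these values were not tested.

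The narrower alveolar fibroblast-like class of that clustering held 27 and 17 cells in Het and 112, 72 and 90 in KO, so its Het libraries lie under the 50 cells asked of other classes. In it Igfbp2 was at no more than 2.59 plain CPM in any library of either genotype, too low for a test. Igfbp4 there read 253 and 176 against 199, 202 and 180 plain CPM (log2 change -0.18, edgeR adjusted p 0.861), and Igf1 had a log2 change of -0.69 (edgeR adjusted p 0.432). Igfbp5 had a log2 change of -0.04 (edgeR adjusted p 0.996). Igfbp7 was still lower, at 149 and 176 against 67.1, 81.3 and 81.9 plain CPM (-1.09, edgeR adjusted p 0.0498). The share of Wif1 and Lgr5 cells thus moved with genotype beside every binding protein of the class, and its part in each difference was not tested. The summed alveolar fibroblast markers of the whole class read 1679 and 1426 plain CPM in Het and 1881, 1533 and 1924 in KO. The adventitial fibroblast markers read 1114 and 1524 in Het and 442, 947 and 884 in KO, and the myofibroblast markers 865 and 1020 against 462, 588 and 521. No marker of these 3 lists was at 0 in a library except 1 alveolar fibroblast marker in KO3.

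**Figure D2:**
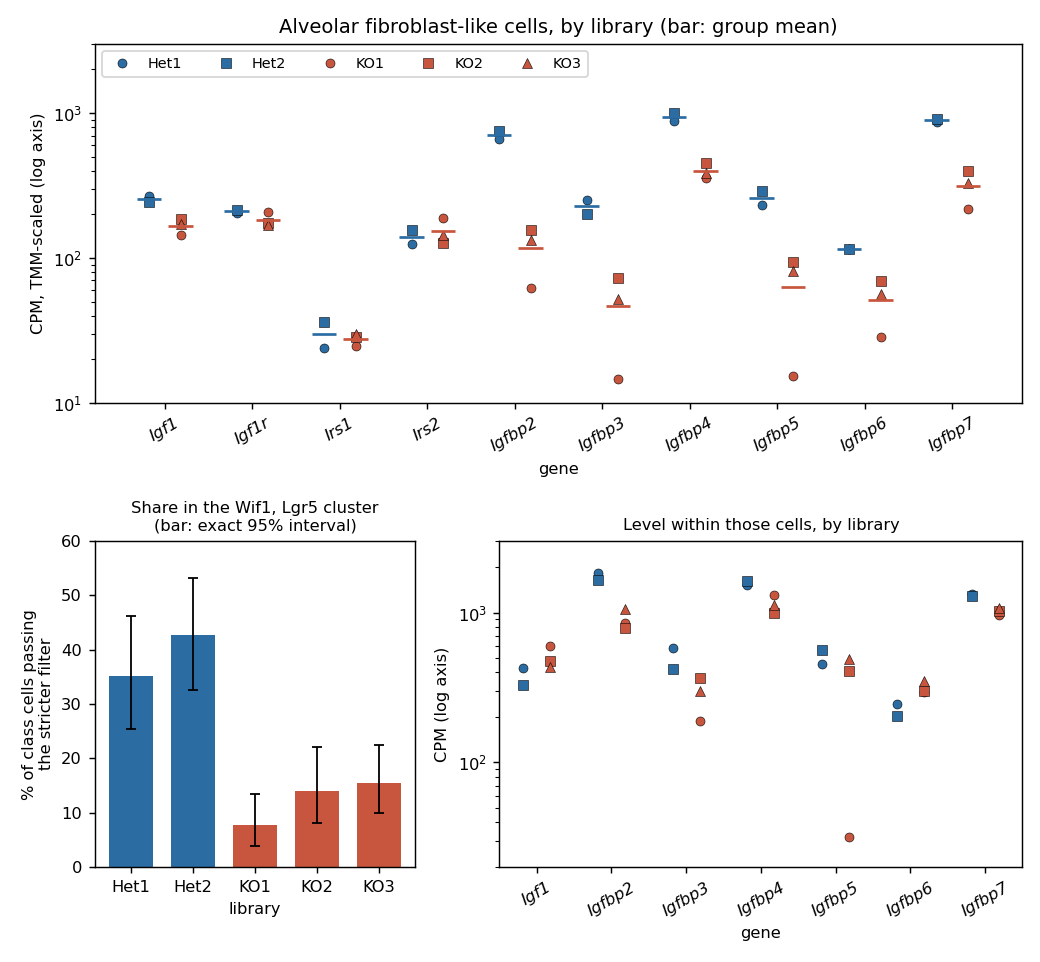
Top: level of the 10 genes in alveolar fibroblast-like cells (TMM-scaled CPM, log axis), a point per library and a bar per group mean. All 6 binding proteins and Igf1 lie lower in the 3 KO libraries. Bottom left: share of the class cells passing the stricter filter that fell in the Wif1 and Lgr5 cluster, 35.2% and 42.7% in Het and 7.80% to 15.5% in KO, with exact 95% intervals. Bottom right: plain CPM within those cells, where Igfbp2 lies between 793 and 1054 in KO and at 1657 and 1821 in Het.

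Igfbp3 was lower in each of 3 fibroblast classes, of which the alveolar fibroblast-like class was mixed as described above. Alveolar myofibroblasts are the contractile cells that help to divide the air sacs. In alveolar myofibroblast-like cells (137, 117, 118, 88 and 145 cells) Igfbp3 read 113 and 85.8 CPM in Het and 3.50, 1.88 and 4.73 in KO. These levels come from 135 and 87 UMIs in Het and 4, 2 and 8 in KO. The log2 change was -4.76 ± 0.29 SE (edgeR adjusted p 9.7e-06), and Igfbp3 was the only 1 of the 9 members tested that was called there, where 0.878% of 9224 genes were (0.119% higher and 0.759% lower). The call held in all 16 alternatives tried, from -5.15 to -4.37. Igfbp3 UMIs were seen in 31.4% and 21.4% of the Het cells and 2.54%, 1.14% and 4.14% of the KO cells. After thinning to 3000 UMIs the Het shares were 19.9% and 15.2% and the highest KO share was 2.10%. In red cell barcodes, unthinned, it was 0.107% to 0.632%.

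Igf1 in the same cells read 1074 and 1161 CPM in Het and 692, 804 and 817 in KO and did not pass (log2 change -0.54 ± 0.13 SE, edgeR adjusted p 0.0825). The summed myofibroblast markers were also lower in KO there, at 5672 and 6380 plain CPM in Het against 3218, 3289 and 4061. The smooth muscle markers read 4660 and 4121 in Het and 11360, 4712 and 5425 in KO, with KO1 apart from the other libraries. Their part in the Igfbp3 and Igf1 values was not tested. No myofibroblast or smooth muscle marker was at 0 in a library of this class.

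In adventitial fibroblast-like cells, which lie around vessels and airways, Igfbp3 read 163 and 180 CPM in Het and 85.7, 87.7 and 91.7 in KO (log2 change -0.96 ± 0.11 SE, edgeR adjusted p 0.0046). The 2 groups were each tight and did not overlap, as was true of 26.7% of all genes. Igfbp3 was the only 1 of 10 members called, where 0.117% of 10291 genes were (0.0194% higher and 0.0972% lower). The call was lost with sex as a covariate (-0.91, edgeR adjusted p 0.144) and under no other alternative. Igf1 in adventitial fibroblast-like cells lay higher in KO without passing, at 151 and 275 CPM against 393, 278 and 387 (0.72 ± 0.21, edgeR adjusted p 0.289).

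Smooth muscle-like cells were the only 1 of the 4 mesenchymal classes tested in which Igf1 passed in the upward direction. It read 12.2 and 19.4 CPM in Het and 43.9, 81.6 and 66.4 in KO (log2 change 2.03 ± 0.29 SE, edgeR adjusted p 0.0232), where 0.241% of 10769 genes and 1 of 10 members were called. The call was lost without Het1 (1.71, edgeR adjusted p 0.155), without KO2 (1.84, 0.0739) and without KO3 (1.99, 0.0514). It was also lost with sex as a covariate (2.10, edgeR adjusted p 0.144), at Leiden resolution 2 (0.95, 0.701), with doublets kept (1.82, 0.0712) and with the stricter cell filter (1.903, 0.249), and held in 9 of 16 alternatives. The myofibroblast markers in these cells read 394 and 368 plain CPM in Het and 323, 340 and 300 in KO, and the adventitial fibroblast markers read 587 and 1194 against 1057, 823 and 1346. Neither list had a marker at 0 there, and their part in the Igf1 values was not tested.

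**Figure D3:**
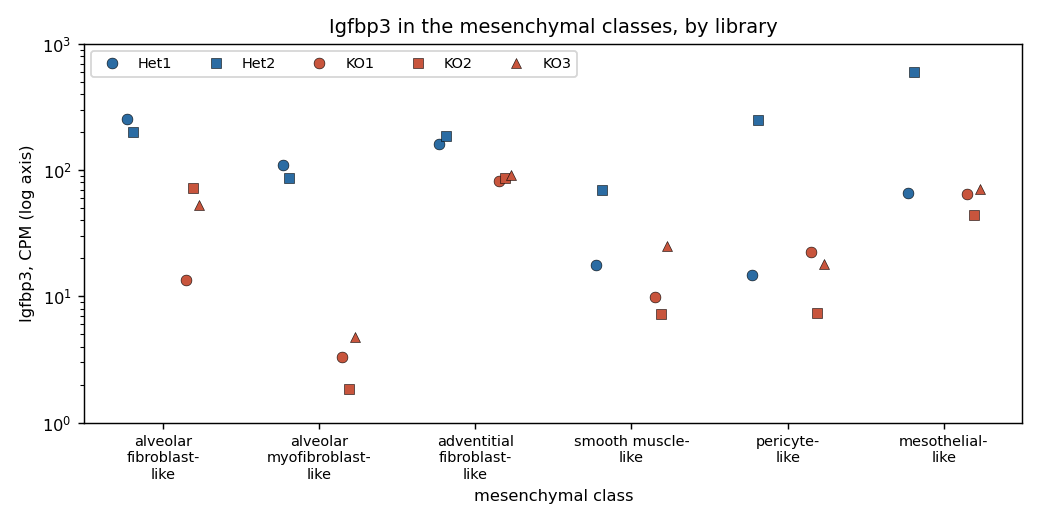
Igfbp3 level (plain CPM) in 6 mesenchymal classes, a point per library. KO points lie below Het points in alveolar myofibroblast-like, alveolar fibroblast-like and adventitial fibroblast-like cells, and Het2 stands alone at 600 CPM in mesothelial-like cells and at 248 CPM in pericyte-like cells.

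In the summed endothelial lineage 3 of the 10 genes passed, where 5.42% of 11910 genes did (1.60% higher and 3.82% lower). Igfbp2 rose from 3.13 and 3.05 CPM in Het to 7.23, 12.8 and 10.7 in KO (log2 change 1.73 ± 0.32 SE, edgeR adjusted p 0.0195), against 1.15 to 2.24 plain CPM in red cell barcodes. Igfbp4 rose from 491 and 471 CPM to 619, 596 and 665 (0.38 ± 0.08, edgeR adjusted p 0.038). Irs1 fell from 6.71 and 7.62 CPM to 1.87, 1.37 and 1.497 (-2.17 ± 0.33, edgeR adjusted p 0.0085). None of the 3 overlapped between groups, as was true of 39.1% of all genes. None of the 3 passed without Het1 (edgeR adjusted p 0.159 for Igfbp2, 0.248 for Igfbp4 and 0.0879 for Irs1) or without Het2 (0.154, 0.307 and 0.110). Without KO3, Igfbp2 (0.067) and Igfbp4 (0.0949) were lost. All 3 were also lost with sex as a covariate (edgeR adjusted p 0.113 for Igfbp2, 0.104 for Igfbp4 and 0.100 for Irs1) and with the replicate number as a block (0.0594, 0.152 and 0.0616), and Igfbp4 with doublets kept (0.0975).

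The fall of endothelial Irs1 moved with 1 cell class. Aerocyte-like cells, the large capillary cells of gas exchange, numbered 63 and 42 in the Het libraries and 1, 1 and 0 in the KO libraries. Irs1 read 48.2 and 65.0 plain CPM in these Het cells, from 20 and 19 UMIs. With the aerocyte-like cells left out, which was chosen after seeing the data, Irs1 had a log2 change of -0.79 (edgeR adjusted p 0.40) and Igfbp4 one of 0.37 (0.0607). Igfbp2 still passed without them (1.72, edgeR adjusted p 0.0356). Igfbp7, at 202 and 198 CPM in Het and 151, 105 and 154 in KO, moved from -0.55 (edgeR adjusted p 0.0779) to -0.15 (0.68) without the aerocyte-like cells.

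Igfbp2 was also higher in KO within general capillary-like cells, the other capillary class. It read 3.81 and 4.65 CPM in Het against 9.86, 10.5 and 14.96 in KO (log2 change 1.49 ± 0.38 SE, edgeR adjusted p 0.0423), the only 1 of 9 members called, where 5.06% of 9815 genes were (1.95% higher and 3.12% lower). It was lost without Het1 (edgeR adjusted p 0.289), Het2 (0.199), KO2 (0.0639) or KO3 (0.121). It was also lost with sex as a covariate (0.0993), the replicate block (0.0833), the stricter cell filter (0.219) and cells with markers of another lineage left out (0.220), and held in 7 of 15 alternatives. In arterial-like cells, too few for a test, Igfbp2 read 3.93 and 4.88 plain CPM in Het and 15.7, 35.4 and 20.4 in KO. Igf1 in the endothelial sum overlapped between groups (59.5 and 63.2 against 120, 50.4 and 113 CPM). Lymphatic-like cells, where Igf1 read 302 to 355 plain CPM in every library, numbered 12 and 6 in Het and 38, 20 and 31 in KO, and without them the log2 change of endothelial Igf1 went from 0.62 to -0.10.

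In the summed epithelial lineage none of the 10 genes passed, where 10.1% of 15018 genes did (3.80% higher and 6.26% lower). At an unadjusted p under 0.05, 4 passed, against 27.6% of all genes, and DESeq2 called 1, Igfbp2, against 11.1%. Igfbp2 read 22.9 and 29.1 CPM in Het and 63.8, 43.6 and 35.0 in KO (log2 change 0.85 ± 0.24 SE, edgeR adjusted p 0.0608). Irs2 read 58.8 and 63.0 against 106, 74.1 and 75.8 CPM (0.48 ± 0.16, edgeR adjusted p 0.0989). Igfbp4 lay the other way at 40.6 and 62.8 against 19.6, 14.4 and 34.4 CPM (-1.16 ± 0.33, edgeR adjusted p 0.0606), and Igfbp7 did so at 243 and 300 against 179, 166 and 234 CPM (-0.49 ± 0.16, edgeR adjusted p 0.0919). None of these 4 overlapped, as was true of 46.1% of all genes. Without KO3, Igfbp2 (1.03, edgeR adjusted p 0.0249), Igfbp4 (-1.63, 0.0081) and Igfbp7 (-0.65, 0.0298) passed.

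AT1-like cells showed a lower Igfbp7 in KO, at 744 and 652 CPM in Het and 374, 424 and 457 in KO (log2 change -0.73 ± 0.12 SE, edgeR adjusted p 0.0022). Igfbp5 was higher, at 37.6 and 41.5 CPM against 38.0, 81.8 and 95.9 (1.01 ± 0.22, edgeR adjusted p 0.0128), although KO1 lay between the Het libraries. These were 2 of 9 members tested, where 3.62% of 9742 genes were called (1.37% higher and 2.26% lower). Without Het1 both were lost (edgeR adjusted p 0.0952 for Igfbp5 and 0.079 for Igfbp7), and Igfbp5 was lost without KO3 (0.133) and with the replicate block (0.0963). Igfbp7 was lost with sex as a covariate (0.102), at Leiden resolution 2 (0.115) and with doublets kept (-0.37, 0.220). With cells that carry markers of another lineage left out, Igfbp5 (0.58, edgeR adjusted p 0.297) and Igfbp7 (-0.46, 0.096) were not called. The AT1 markers of the class read 12170 and 12751 plain CPM in Het and 8940, 7809 and 8794 in KO, and the AT2 markers 3283 and 5820 against 4285, 9417 and 6305, and their part was not tested.

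AT2-like, club-like and ciliated airway-like cells had fewer than 50 cells in some libraries and were not tested. Of the epithelial classes tested, more members passed in 1 unnamed cluster led by Cldn18, Tspan8 and Egfl6 than in AT1-like cells. The cluster held 170, 173, 129, 147 and 188 cells. Its cells were deep, with library medians of 22869 to 41158 UMIs. Cells with markers of another lineage made up 84.7% and 87.3% of it in Het and 56.6%, 63.9% and 70.7% in KO. The endothelial markers of the cluster read 2392 and 2218 plain CPM in Het and 342, 232 and 478 in KO. In this cluster 6 of the 10 members passed, where 23.5% of 13256 genes did.

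Igfbp5 in that cluster rose from 23.6 and 24.1 CPM to 103, 133 and 118 (log2 change 2.31 ± 0.13 SE, edgeR adjusted p 8.9e-06). Igfbp2 rose from 7.54 and 9.51 CPM to 63.1, 45.2 and 35.2 (2.45 ± 0.26, edgeR adjusted p 0.00013). Both held with the cells carrying markers of another lineage left out, at 2.06 (edgeR adjusted p 0.0030) and 1.903 (0.0397). Irs2 was higher at 65.2 and 67.7 against 112, 84.3 and 82.6 CPM (0.48 ± 0.14, edgeR adjusted p 0.0352), but without those cells its log2 change was -0.04. Igfbp7 (362 and 360 against 205, 185 and 241 CPM, -0.78 ± 0.12, edgeR adjusted p 0.0012) was not called without them (-0.50, 0.211). Igfbp4 (97.6 and 120 against 26.8, 19.4 and 43.1 CPM, -1.85 ± 0.25, edgeR adjusted p 0.00069) and Igf1 (30.3 and 48.2 against 7.71, 21.8 and 24.1 CPM, -1.06 ± 0.33, edgeR adjusted p 0.0444) had too few UMIs left for a test without them. Without Het1 the calls of Irs2 (edgeR adjusted p 0.195) and Igf1 (0.0526) were lost, as they were without Het2 (0.166 and 0.361) and with sex as a covariate (0.338 and 0.347). Igf1 was also lost with DESeq2 (adjusted p 0.241) and with scaling by library size (0.0501). With the whole cluster left out of the epithelial sum, Igfbp2 moved to 0.08 (edgeR adjusted p 0.967) and Igfbp4 to 1.28 (0.62).

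In the summed immune lineage 3 of the other 9 genes passed, where 8.12% of 13838 genes did (3.37% higher and 4.74% lower). Igf1, whose value here chose the list and has no test, read 22.0 and 27.1 CPM in Het and 91.4, 76.2 and 69.9 in KO, a log2 difference of 1.69. Igfbp4 rose from 35.4 and 37.5 CPM to 79.3, 74.3 and 82.7 (log2 change 1.11 ± 0.07 SE, edgeR adjusted p 0.00035), and the call held in all 16 alternatives, among them sex as a covariate (1.18, edgeR adjusted p 0.0062). Igf1r rose from 20.1 and 21.2 CPM to 27.1, 31.7 and 25.0 (0.43 ± 0.10, edgeR adjusted p 0.0403). Irs2 fell from 90.7 and 110 CPM to 67.3, 59.2 and 66.0 (-0.64 ± 0.09, edgeR adjusted p 0.0053). None of the 3 overlapped, nor did Igf1, as was true of 42.2% of all genes. Without Het1 (edgeR adjusted p 0.270), Het2 (0.202) or KO2 (0.0751) Igf1r was lost, and without Het2 Irs2 was lost (0.0562). With sex as a covariate Igf1r (0.27, edgeR adjusted p 0.255) and Irs2 (-0.60, 0.071) were both lost. Igf1r was lost too at Leiden resolution 0.5 (0.30, 0.141) and 2 (0.42, 0.0522) and with doublets kept (0.39, 0.0527).

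The Igf1 and Igfbp4 differences moved with 1 class. Interstitial macrophages are the tissue macrophages of the lung wall. Low-depth clusters were given no lineage and are left out of the shares below. They include an interstitial macrophage-like cluster (91 and 83 cells in Het, 71, 112 and 123 in KO). A neutrophil-like cluster is also among them (213 and 225 cells in Het, 100, 137 and 139 in KO). Interstitial macrophage-like cells, cycling ones included, made up 6.66% and 6.49% of the immune cells counted in the Het libraries. In the KO libraries they made up 24.4%, 15.6% and 16.8%. They held 75.6% of immune Igf1 UMIs in Het1 (exact 95% interval 72.0 to 79.0), 77.3% in Het2 (74.1 to 80.2), 94.3% in KO1 (92.9 to 95.5), 95.6% in KO2 (94.4 to 96.5) and 94.2% in KO3 (93.1 to 95.2). They held 78.8% and 79.5% of immune Igfbp4 UMIs in Het and 89.9%, 86.9% and 86.7% in KO. Outside them Igf1 read 5.53 and 6.37 plain CPM in Het and 6.42, 3.95 and 4.96 in KO. Red cell barcodes of the same libraries read 3.64 and 2.91 in Het and 3.43, 3.13 and 6.53 in KO. Only KO3 thus lay below its own red cell barcodes for Igf1. Outside them Igfbp4 read 7.74 and 7.97 in Het and 9.90, 11.3 and 13.5 in KO. Red cell barcodes read 9.47 and 8.96 in Het and 15.9, 8.07 and 13.5 in KO for Igfbp4. Immune cells are deeper than red cell barcodes, so equal CPM stand for more UMIs per droplet, and the part of free RNA was not tested.

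Within interstitial macrophage-like cells none of the 6 other members tested passed with edgeR, where 1.20% of 9879 genes did. DESeq2 called 0 of the 6, against 0.871% of genes, and 0 of the 6 had an unadjusted edgeR p under 0.05, against 10.1% of genes. Igf1 read 301 and 410 CPM in Het and 462, 536 and 483 in KO, a log2 difference of 0.47. Igfbp4 read 465 and 512 against 382, 462 and 505 CPM and overlapped (log2 change -0.12 ± 0.13 SE, edgeR adjusted p 0.834). The interstitial macrophage markers of the class read 33480 to 36285 plain CPM in Het and 33312 to 42688 in KO, and the myofibroblast markers 211 and 214 in Het and 126, 127 and 163 in KO. With these cells left out of the immune sum, which was chosen after seeing the data, Igf1 had a log2 difference of -0.30, Igfbp4 a change of 0.53 (edgeR adjusted p 0.054) and Igf1r one of 0.16 (0.578).

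**Figure D4:**
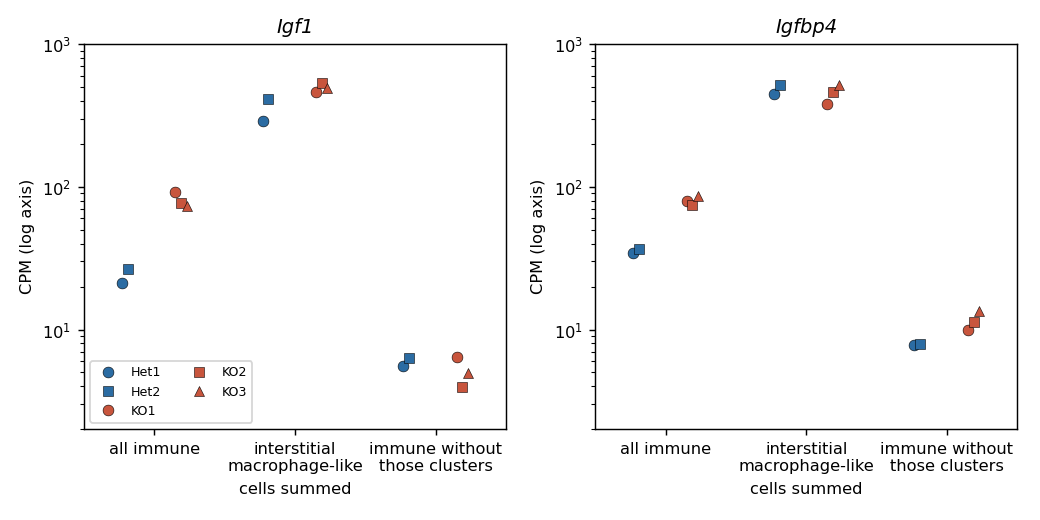
Igf1 (left) and Igfbp4 (right) in plain CPM (log axis), a point per library, for all immune cells, interstitial macrophage-like cells, and immune cells without those clusters. The libraries separate by genotype in the first column, while Igfbp4 overlaps in the second. Both genes lie low in the third, where Igf1 is above the CPM of the same library's red cell barcodes, which hold fewer UMIs each, except in KO3.

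Irs2 was the only 1 of the 3 called genes that still passed without the interstitial macrophage-like cells (log2 change -0.66, edgeR adjusted p 0.0056). It was lower in KO in several immune clusters. In the cluster led by Ear2, Plet1 and Lpl it read 124 and 154 CPM in Het and 103, 96.9 and 96.4 in KO (-0.50 ± 0.09, edgeR adjusted p 0.0107), where 1 of the 6 other members and 5.50% of 10827 genes were called. Groups did not overlap there for 36.5% of genes. Igf1, a description only, read 8.16 and 7.82 against 3.00, 2.92 and 4.04 CPM, with the KO values inside the CPM range of red cell barcodes. In the cycling cluster led by Nusap1, Pclaf and Ccna2, Irs2 read 87.0 and 107 against 65.2, 70.9 and 70.2 CPM (-0.49 ± 0.10, edgeR adjusted p 0.0153), where 1 of the 5 other members and 2.09% of genes were called (0.911% higher and 1.18% lower), and groups did not overlap for 30.4% of genes.

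In the cluster led by Gal, Ccnb2 and Abcd2, Irs2 read 90.4 and 140 against 57.3, 77.4 and 69.4 CPM and did not pass (-0.75 ± 0.17, edgeR adjusted p 0.0995), where 0.0807% of genes were called and groups did not overlap for 25.9%. In these 3 clusters each KO library lay below both Het libraries for Irs2. Without Het2 the Irs2 call was lost in the Ear2 cluster (edgeR adjusted p 0.198) and the Nusap1 cluster (0.434). Without KO2 it was lost in the Ear2 cluster (0.0698). With sex as a covariate it was lost in the Ear2 (0.0585) and Nusap1 (0.0616) clusters, and without cells carrying markers of another lineage in the Nusap1 cluster (0.107). In monocyte-like cells Irs2 overlapped, at 18.7 and 23.4 against 26.0, 14.8 and 18.8 CPM, and edgeR called 0 of the 6 other members tested there, where 0.0423% of genes were called. DESeq2 called 0 of the 6, against 0.434% of genes, and 0 of the 6 had an unadjusted edgeR p under 0.05, against 9.91% of genes.

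Whether the genotype difference itself varied between the 4 lineages was tested in 1 edgeR model of 20 sums with library as a block. Apart from Igf1, it did for 4 of 9 genes, where 10.1% of 16699 genes passed the joint test. The sums differ between genotypes in their mix of cell classes, as described above, and the part of that mix was not tested. For Igfbp2 the log2 change in mesenchymal cells differed from that in epithelial cells by -1.98 (edgeR adjusted p 0.00015) and from that in endothelial cells by -2.92 (0.0083). Igfbp4 differed between immune and epithelial cells by 2.28 (edgeR adjusted p 6.5e-05), between endothelial and epithelial cells by 1.57 (0.0022) and between immune and mesenchymal cells by 1.33 (0.0089). Irs2 differed between immune and epithelial cells by -1.11 (edgeR adjusted p 0.00032) and between immune and mesenchymal cells by -0.68 (0.033). Irs1 differed between endothelial and epithelial cells by -2.20 (edgeR adjusted p 0.025). Igf1 differed between immune and epithelial cells by 2.06 and between immune and mesenchymal cells by 1.899, given as a description because the immune value chose the list. Igfbp3 did not pass the joint test (edgeR adjusted p 0.086), but did without Het1 (0.00024) or Het2 (0.036), and Irs1 was lost without KO1 (0.119), KO2 (0.105) or KO3 (0.213).

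**Figure D5:**
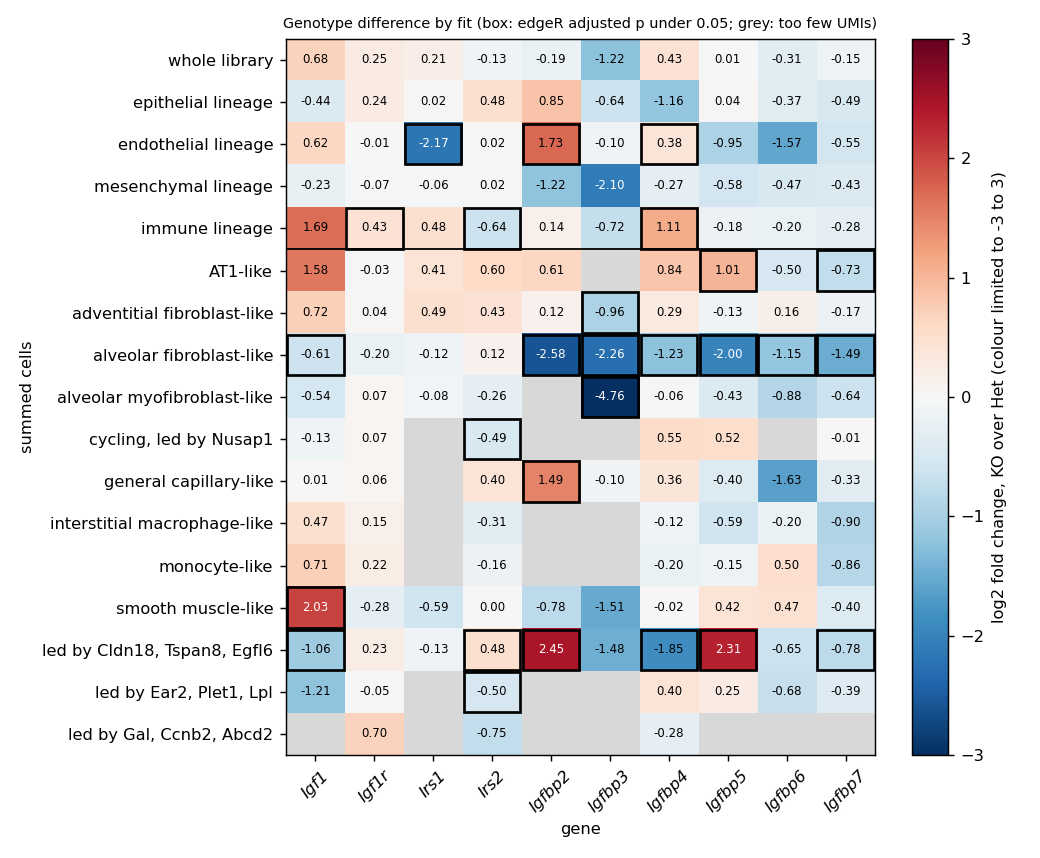
Log2 fold change, KO over Het, of the 10 genes (columns) in the whole library, 4 lineage sums and 12 classes or clusters (rows). Boxes mark an edgeR adjusted p under 0.05 (none is drawn for Igf1 in immune cells) and grey marks too few UMIs. The row of alveolar fibroblast-like cells has 7 boxes, all lower in KO, and Igfbp3 in alveolar myofibroblast-like cells has the lowest value at -4.76.

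The rest of the IGF pathway was read as a list of 47 genes in the same sums. Over whole libraries 2 of 41 tested rose and 1 fell, where 1.06% of all genes rose and 2.77% fell. Grb10, an adaptor that restrains the receptor, rose from 95.6 and 111 CPM to 184, 145 and 157 (log2 change 0.65 ± 0.12 SE, edgeR adjusted p 0.0469). Igf2bp1, an RNA-binding protein that binds Igf2 transcripts, rose from 17.2 and 18.49 to 30.7, 25.6 and 26.1 CPM (0.62 ± 0.10, edgeR adjusted p 0.0352). Pik3cb, a PI3-kinase subunit, fell (-0.54 ± 0.10, edgeR adjusted p 0.0477). Insr, the insulin receptor, overlapped, at 38.9 and 37.8 against 41.9, 36.2 and 37.4 CPM. The list's median log2 change was 0.01, the same as that of all genes tested.

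In the epithelial sum 4 of 40 tested rose and 1 fell, where 3.80% of all genes rose and 6.26% fell. The fetal ligand Igf2 rose from 73.0 and 77.2 CPM to 163, 163 and 142 (log2 change 1.05 ± 0.10 SE, edgeR adjusted p 0.0014). Igf2 in red cell barcodes was also higher in KO, at 11.9 and 12.2 plain CPM in Het and 64.6, 17.8 and 28.1 in KO, and the part of this free RNA was not tested. Grb10 (0.86, edgeR adjusted p 0.0022), Igf2bp1 (0.67, 0.0188) and Igf2bp3 (0.46, 0.0322) rose, and Inpp5d, a phosphatase of blood cells, fell (-1.48, 0.0243). In the immune sum Grb10 was the 1 of 35 tested that rose (0.83, edgeR adjusted p 0.0338), and 2 fell, where 3.37% of all genes rose and 4.74% fell. Igf2r, the receptor that clears IGF2, fell from 7.64 and 7.04 to 2.97, 2.34 and 4.08 CPM (-1.20 ± 0.21, edgeR adjusted p 0.0124), values near its 3.52 to 5.59 plain CPM in red cell barcodes, and Igf2bp2 fell too (-0.34, 0.0353). In the endothelial sum Igf2bp1 rose (0.81, edgeR adjusted p 0.0322) and Grb14 fell (-1.13, 0.0235) of 38 tested, where 1.60% of all genes rose and 3.82% fell. In the mesenchymal sum edgeR called 0 of 39, against 0.186% of all genes, and 6 had an unadjusted p under 0.05, against 13.7%.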

How the data were processed

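For the 5 lung libraries the authors deposited raw UMI counts of each gene in each barcode. Cell Ranger 4.0.0 and mm10 are named in the submitters' processing notes. A barcode was kept as a cell from 500 detected genes upwards unless mitochondrial UMIs exceeded 15%. Red cell barcodes had under 500 genes and over 50% haemoglobin UMIs. The highest-scoring simulated-doublet neighbours were removed, at 0.8% per 1000 cells (78 to 186 per library). Cells were clustered with scanpy 1.11.5 and scikit-learn 1.9.0 under Python 3.11.15 from 2000 variable genes, 30 principal components, 15 neighbours and Leiden resolution 1. The 10 genes and the 47 pathway genes were left out of the variable genes. A cluster was named where 3 or more listed markers were enriched and detected in 20% of its cells, with more of them among its top 10 genes than any other type had. Otherwise it is called by its leading genes.

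Per library, counts were added up over the whole sample, each lineage and each class (50 cells or more per library). Clusters of low depth entered the whole sample only. Sums were tested with edgeR 4.0.16 in R 4.3.3 (TMM scaling, filterByExpr, two-sided quasi-likelihood test, Benjamini-Hochberg adjustment over all genes tested). All 10 genes were named by rule in every comparison where they were tested, and of the pathway list those that passed. Igf2, Igf2r and Insr were named as well, though not in every comparison. DESeq2 1.42.0, other scalings, filters, clusterings, covariates and left-out libraries were alternatives. On simulated counts 200 genes were changed by 1 on the log2 scale, of which 190 to 200 passed the filter in each test. Of those that passed, the edgeR test recovered 82.5% over whole libraries. By lineage it recovered 87.2% (epithelial), 75.8% (endothelial), 81.4% (mesenchymal) and 87.7% (immune). It recovered 55.8% in alveolar fibroblast-like and 48.4% in alveolar myofibroblast-like cells. The test of genotype by lineage recovered 86.5% of genes raised in immune cells only. These were drawn from genes well counted in immune cells, and Irs1, Igfbp2 and Igfbp3 had too few immune UMIs to be among them. Each simulation gave all genes 1 common spread, so recovery may be lower for genes that vary more between libraries.

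The 10 genes, the pathway list and the alternatives were chosen with earlier results of these data known. Leaving out single classes and dividing the alveolar fibroblast-like class were added after the data were seen. Het and KO libraries share the replicate numbers 1 and 2, but the labels give these numbers no further meaning. Each library is a separate embryo per the labels' protocols, and the litters are not given in the sources used here. Protein sequences were not used here. The counts of classes include 1 immune cluster that is not reported here.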

Additional observations from a re-analysis of the deposited data

Results flagged for a closer look

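The KO minus Het difference was tested for variation between the epithelial, endothelial, mesenchymal and immune sums, and 4 of 9 genes varied (Igf1, whose immune value chose the list, was not counted) at an edgeR adjusted p under 0.05. The joint edgeR adjusted p was 0.00017 for Igfbp4, which lay lower in KO in epithelial and higher in endothelial and immune sums. It was 0.00028 for Igfbp2, whose KO libraries were higher in epithelial and endothelial sums and lower in mesenchymal ones. It was 0.0010 for Irs2, lower in KO in immune cells with every epithelial KO library above both Het libraries. It was 0.0448 for Irs1, lower in the endothelial sum and overlapping in the others, and it was lost without KO1 (0.119), KO2 (0.105) or KO3 (0.213). The sums differ between genotypes in their mix of cell classes, and the part of that mix was not tested. Without the cluster led by Cldn18, Tspan8 and Egfl6, epithelial Igfbp4 was no longer lower in KO and the epithelial Igfbp2 difference nearly vanished. Immune Igfbp4 was not called without the interstitial macrophage-like cells, nor endothelial Irs1 without the aerocyte-like cells.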

How the results depend on the processing

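Igf1 in immune cells is left out of these counts. Of 28 calls of the 10 genes over 5 sums and 13 classes or clusters, 28 were kept with no filter on low counts (26 more were added), 28 with 10 UMIs or more in every library of 1 group, 26 with scaling by library size, 23 with the replicate block, 11 with sex as a covariate, and 22 of 27 with DESeq2. Leaving out Het1 kept 15, Het2 14, KO1 28, KO2 23 and KO3 23. Clustering at resolution 0.5 kept 18 of 19 calls that could be compared, resolution 2 kept 16 of 19, keeping doublets 15 of 19, the stricter cell filter 11 of 16, and leaving out cells with markers of another lineage 20 of 26. Reversed values were Igf1 in immune cells without the interstitial macrophage-like clusters (-0.30) and Irs2 in the cluster led by Cldn18, Tspan8 and Egfl6 without cells carrying other lineages' markers (-0.043). The causes were not tested.

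Over whole libraries 0 of the 10 genes were called, and 1 by DESeq2. All genes called numbered 676, against 7 with the block, 0 with sex and 2106 with DESeq2. In the epithelial sum 0 of the 10 became 2 by library size, 3 with no filter, 4 with the block and 1 by DESeq2. All genes there went from 1511 to 617 with sex, 180 without cells of mixed markers and 11 without the cluster led by Cldn18. In the endothelial sum 3 of the 10 became 7 with no filter, 0 with the block, 0 with sex, 5 without mixed cells and 1 without aerocyte-like cells, and all genes went from 645 to 1456, 298, 139 and, without aerocyte-like cells, 322. In the mesenchymal sum 0 of the 10 became 4 with no filter, 1 with the block, 3 with DESeq2, 3 without mixed cells and 3 without mesothelial-like cells. All genes there went from 26 to 402 with no filter, 3 with sex, 189 with DESeq2, 14 with the stricter cell filter, 124 without mixed cells and 129 without mesothelial-like cells. In the immune sum 3 of 9 became 1 with sex and 1 without the interstitial macrophage-like clusters, and all genes went from 1123 to 1686 with the block, 320 with sex and 723 without those clusters. Calls over 13 classes went from 22 to 37 with no filter and 11 with sex. Over the 8 named classes they went from 13 to 24, to 7, and to 5 with the stricter cell filter.

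Leaving out each library in turn gave, for the 10 genes, 0 to 0 calls over whole libraries, 0 to 3 in epithelial, 0 to 5 in endothelial, 0 to 3 in mesenchymal and 1 to 3 in immune sums, 14 to 30 over 13 classes, 7 to 18 over the named classes, and 3 to 5 in the test between lineages. For all genes it gave 2 to 806, 481 to 1644, 112 to 1014, 3 to 203 and 212 to 1312 in those 5 sums, and 693 to 1384 against 1693 between lineages. Where an arm was left with 1 sample, edgeR took that sample to vary like the other group. The replicate block pairs numbers that the labels do not explain. Deviations from the group means over 14464 genes correlated at -0.16 for Het1 with KO1 and -0.18 for Het2 with KO2. They correlated at 0.16 for Het2 with KO1 and 0.18 for Het1 with KO2. The deviations of Het1 and Het2 mirror each other by construction, so these values cannot show whether libraries share a litter or batch. Depth limits the low genes: Igfbp2 in the endothelial sum read 3.05 to 12.8 CPM, against 1.15 to 2.24 plain CPM in red cell barcodes. With sex as a covariate, KO3 is the only male KO library.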
